A study of Homo sapiens with 3 samples.

Results

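The BCL2 family of apoptosis regulators was examined in PANC-1, an established human cell line from a pancreatic ductal carcinoma. The 10 genes described here were the rows of the count table whose symbol was that of a listed family member, 10 of 51136 genes in all. They comprised 3 pro-survival genes (BCL2, BCL2L1 and MCL1), 2 effector genes (BAX and BAK1) and 5 BH3-only genes (BBC3, PMAIP1, BCL2L11, BID and BAD). The rule used their names and no measured value. RNA was sequenced on an Ion Proton instrument from 1 library of each of 3 conditions. The control library came from cells that received no agent, the Rg3 library from cells given 200 μM ginsenoside Rg3 for 24 h, and the TAM library from cells given 50 μM tamoxifen for 24 h. Ginsenoside Rg3 is a steroidal saponin of ginseng, and tamoxifen is a modulator of the estrogen receptor. The study gave Rg3 as an antiangiogenic agent, and tamoxifen as an inhibitor of protein kinase C, beside cantharidin. The labels give no vehicle for the control and do not say whether a library pooled several cultures. Without replicates, every ratio here compares libraries and carries no replicate check.

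BCL2 family proteins decide whether the outer mitochondrial membrane stays intact. Pro-survival members hold back the effectors BAX and BAK1, which otherwise form pores that let cytochrome c out and start the caspase cascade. BH3-only members sense stress and either occupy the pro-survival proteins or engage the effectors, each with its own preferred partners. Carcinoma cells of the pancreas are known to lean on BCL2L1 and MCL1 for survival.

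All 10 are protein-coding genes, located here in GRCh38 with the GENCODE 29 annotation. The pro-survival genes are BCL2 at chr18:63123346-63320128 (minus strand), BCL2L1 at chr20:31664452-31723989 (minus strand) and MCL1 at chr1:150574551-150579738 (minus strand). The effectors are BAX at chr19:48954815-48961798 (plus strand) and BAK1 at chr6:33572547-33580293 (minus strand). The BH3-only genes are BBC3 at chr19:47220822-47232766 (minus strand), PMAIP1 at chr18:59899948-59904306 (plus strand), BCL2L11 at chr2:111119378-111168447 (plus strand), BID at chr22:17734138-17774770 (minus strand) and BAD at chr11:64269830-64284704 (minus strand). A count is 1 value for a gene, so isoforms are not told apart.

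The libraries held 11300766 counts (control), 12861693 counts (Rg3) and 11321442 counts (TAM). All 6 epithelial and PANC-1 markers (KRT8, KRT18, KRT19, KRT7, VIM and S100A6) had at least 93 counts in each library. Of 5 immune markers, 4 had 1 count at most, PTPRC, CD3E and LYZ among them, whereas CD68, a lysosomal membrane protein, had 615 (control), 426 (Rg3) and 1100 (TAM) counts. The 3 endothelial markers had at most 3 counts, and the 5 acinar and islet markers were at 0. Because the RNA was taken from whole cultures, fewer cells with a transcript and less of it per cell cannot be told apart. Ratios between libraries were set on the trimmed mean of M values (TMM) scaling, and a gene was compared where either library had at least 10 counts. A gene was called higher or lower past 1.5-fold, which is 0.585 on the log2 scale. Brackets give the 95% counting interval, which covers counting error only.

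Between these libraries, the ratio of a gene varied with its base composition, and this bears on each member. Across the 11583 genes that had 50 counts or more in 1 of the libraries compared, the log2 ratio of Rg3 to control had a Spearman correlation of -0.81 with the GC content of the longest transcript. For TAM the correlation was 0.51 across 11022 genes, and with transcript length it was -0.45. The points share their libraries, so these are descriptions. Among the members, GC content ran from 37.2% in PMAIP1 through 45.1% in MCL1, 45.6% in BCL2 and 45.7% in BCL2L11, 49.7% in BID, 56.9% in BCL2L1, 58.8% in BAK1 and 58.9% in BAX to 66.3% in BAD and 69.7% in BBC3. The members' ratios are therefore also given after removal of this trend, as values that have no interval.

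**Figure D1:**
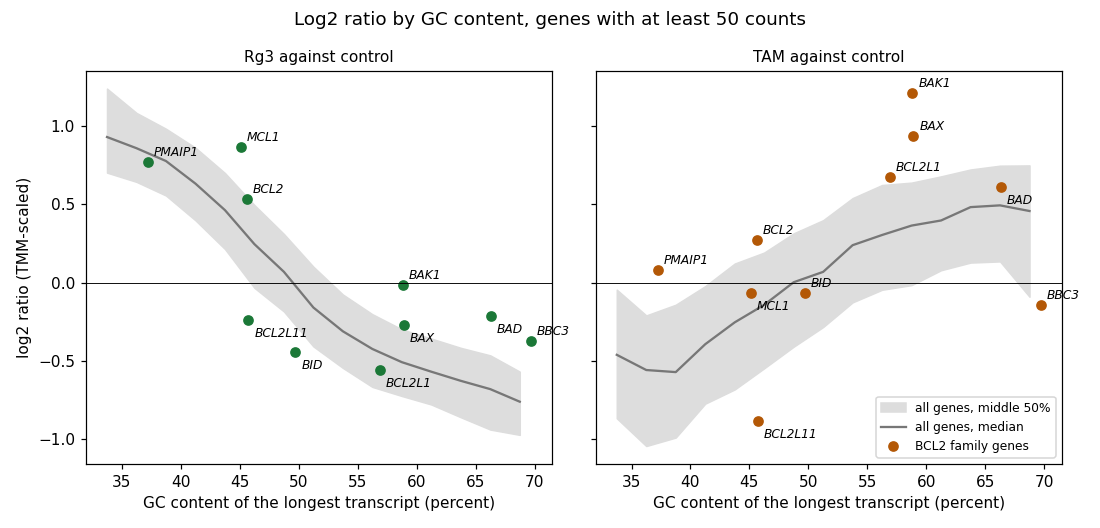
Log2 ratio (TMM-scaled, vertical axis) against GC content of the longest transcript (percent, horizontal axis) for Rg3 and TAM, each against control. The line is the median and the band the middle 50% of all genes with at least 50 counts, in bins of GC content, and the points are the 10 family genes; among the genes above the band are MCL1 and BAK1 for Rg3, and BAX and BAK1 for TAM.

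The sequence just upstream of the start site is shown to let genes that were higher together be read side by side, for the effector genes and BAD, which were higher with TAM, and for PMAIP1, which was higher with Rg3. Each is the 250 bases before the RefSeq start site in GRCh38.p14, written 5′ to 3′ on the strand of the gene. Capitals mark the core of a cyclic AMP response element (TGACGT, or ACGTCA when read from the other strand) and the palindromic E-box CACGTG. They were found on either strand, and no match to one overlapped a match to the other.
BAX (chr19:48954625-48954874, plus strand): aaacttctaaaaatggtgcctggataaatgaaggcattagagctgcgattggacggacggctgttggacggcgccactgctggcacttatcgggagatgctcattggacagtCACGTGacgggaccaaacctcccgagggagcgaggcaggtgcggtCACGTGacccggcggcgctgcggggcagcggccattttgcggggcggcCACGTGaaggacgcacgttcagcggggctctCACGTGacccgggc
BAK1 (chr6:33580277-33580526, minus strand): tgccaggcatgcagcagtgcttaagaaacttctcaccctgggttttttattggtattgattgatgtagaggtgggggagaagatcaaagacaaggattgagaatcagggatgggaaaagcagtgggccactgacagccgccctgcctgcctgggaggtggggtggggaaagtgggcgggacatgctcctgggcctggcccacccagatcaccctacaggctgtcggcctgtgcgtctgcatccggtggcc
BAD (chr11:64284705-64284954, minus strand): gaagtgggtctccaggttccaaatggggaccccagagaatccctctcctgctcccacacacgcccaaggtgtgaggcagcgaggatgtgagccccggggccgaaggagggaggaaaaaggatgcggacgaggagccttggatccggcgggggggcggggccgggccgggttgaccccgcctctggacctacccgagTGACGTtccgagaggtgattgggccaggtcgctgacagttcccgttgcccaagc
PMAIP1 (chr18:59899746-59899995, plus strand): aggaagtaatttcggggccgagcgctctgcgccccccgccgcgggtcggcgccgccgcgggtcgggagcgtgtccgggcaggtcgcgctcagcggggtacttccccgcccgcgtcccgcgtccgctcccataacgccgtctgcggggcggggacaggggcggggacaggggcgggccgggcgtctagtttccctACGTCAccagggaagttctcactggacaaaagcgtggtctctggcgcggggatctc
The BAX window held 4 E-boxes and the BAK1 window held none, although both genes were higher with TAM. With the GC and length trend removed, BAK1 stayed past 1.5-fold (0.75), whereas BAX (0.47), BAD (0.06) and PMAIP1 (-0.001) did not. For BAD, which has 2 start sites in RefSeq, the first listed is shown. BAD and PMAIP1 each held 1 cyclic AMP response element core and no E-box. Among 27305 RefSeq genes with a window of this length, 7.42% held the response element core and 6.49% held the E-box. The GC box GGGCGG, held by 42.3% of all promoters, was present in each of these 4 windows, and CCAAT, held by 33.0%, was present in those of BAX, BAK1 and BAD. Promoters were matched for 9 of the 10 members, all but MCL1, which was also higher with Rg3. BCL2L1, also higher with TAM, has 2 windows that are not printed, and neither held any of these 4 motifs. A match describes letters in a window and shows no binding.

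Among the family, BCL2L1 was the most abundant transcript per length and BCL2 the least abundant in each library. On the RPKM scale, which corrects reads for transcript length and (here by TMM) for depth, the control levels were 71.8 for BCL2L1, 53.3 for BAX, 43.8 for BAD, 34.8 for BAK1, 21.4 for MCL1 and 12.0 for BID. The remaining genes were far lower, at 3.22 for PMAIP1, 3.08 for BBC3, 1.85 for BCL2L11 and 0.257 for BCL2. PMAIP1 and BBC3 were the only neighbours in this order with overlapping counting intervals in control. In the Rg3 library MCL1 moved from the fifth to the third place at 39.1, with an interval that overlapped that of BAD at 37.7, and BCL2L1 at 48.7 overlapped BAX at 44.1. In the TAM library BCL2L1 stood at 115, BAX at 102, BAK1 at 80.5 and BAD at 66.9, with MCL1 at 20.5, and no intervals of these neighbours overlapped. These levels use the longest annotated transcript of each gene, so a shorter isoform in use would raise its level. The levels also do not have the GC and length trend removed. With it removed, the Rg3 log2 ratios of MCL1 (0.586), BAK1 (0.578) and BAD (0.575) were nearly equal. The move of MCL1 past BAD and BAK1 is thus seen only without trend removal.

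**Figure D2:**
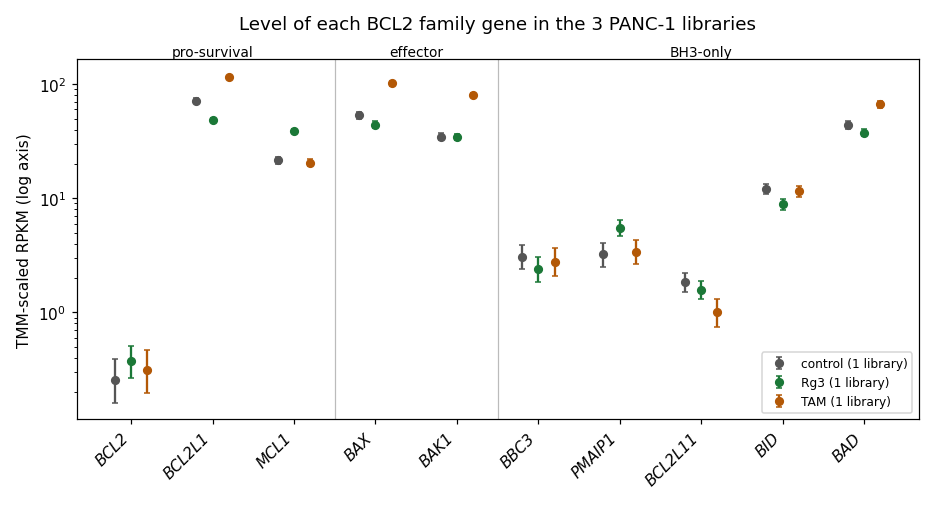
Level of each of the 10 genes in the control, Rg3 and TAM libraries, in TMM-scaled RPKM on a log axis. The GC and length trend is not removed. Points are single libraries and bars are 95% counting intervals; MCL1 stands out in the Rg3 library (39.1 against 21.4 in control), and BCL2L1, BAX, BAK1 and BAD stand highest in the TAM library.

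Rg3 and control were compared first. With Rg3, 2 of the 10 members were higher past 1.5-fold, beside 25.0% of the 16487 genes compared, and 0 were lower, beside 19.3%. Both were read more in the Rg3 library: MCL1, the short-lived pro-survival protein, and PMAIP1, its BH3-only partner also known as NOXA. The members' median log2 ratio was -0.23, and that of all genes was 0.04. With the GC and length trend removed, 1 member was higher (10.3% of all genes) and 0 were lower (8.71%), and the median of the members was 0.32 beside 0.06 for all genes. Relative to scaling by library totals, the TMM scaling shifted log2 ratios by -0.14 for Rg3 and by 0.21 for TAM. When the libraries were scaled by their totals, 31.4% of all genes were higher and 13.8% lower, and 3 members were higher, since BCL2 joined at 0.68, and 0 lower.

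The pro-survival genes differed in direction. MCL1 had 968 counts in control, 2215 in Rg3 and 801 in TAM. Its level was thus 1.82-fold higher in the Rg3 library than in control, a log2 ratio of 0.87 [0.76, 0.98]. It remained past the fold with the trend removed, but only just, at 0.586. BCL2L1, which encodes BCL-XL, had 2152, 1831 and 2979 counts in the same order. It was 0.678 times the control level with Rg3 (log2 ratio -0.56 [-0.65, -0.47]), which lay within 1.5-fold, and with the trend removed the value was -0.03. The founding member BCL2 had 22, 40 and 23 counts, too few for a narrow interval (0.54 [-0.25, 1.36], or 0.30 with the trend removed).

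The effectors lay within 1.5-fold of control in the Rg3 library. BAK1 had 883 counts in control, 1094 in Rg3 and 1773 in TAM. Its log2 ratio for Rg3 was -0.02 [-0.15, 0.11]. BAX had 831, 862 and 1379 counts, and its ratio for Rg3 was -0.27 [-0.41, -0.13]. Genes of such GC content had a median log2 ratio of -0.51 with Rg3, and with the trend removed BAK1 stood at 0.578 and BAX at 0.34, both within 1.5-fold.

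Among the BH3-only genes, PMAIP1 had 72 counts in control, 154 in Rg3 and 66 in TAM. It was 1.71-fold higher in the Rg3 library, a log2 ratio of 0.77 [0.36, 1.19]. The trend gave the same size for a gene of its composition, so that the ratio with the trend removed was -0.001, a reversed sign at a value near 0. BID, which caspase-8 cleaves to link death receptors to mitochondria, had 345, 318 and 286 counts and a ratio for Rg3 of -0.44 [-0.67, -0.22], or -0.37 with the trend removed. BAD, the member that growth factor kinases silence by phosphorylation, had 582, 628 and 770 counts. Its ratio of -0.22 [-0.38, -0.05] for Rg3 became 0.575 with the trend removed, just inside the fold. BBC3, which encodes PUMA, had 65, 63 and 51 counts, with -0.37 [-0.90, 0.15] and 0.47 with the trend removed. BCL2L11, which encodes BIM, had 111, 118 and 52 counts, with -0.24 [-0.62, 0.15] and -0.47 with the trend removed. The intervals of BBC3 and BCL2L11 included 0.

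**Figure D3:**
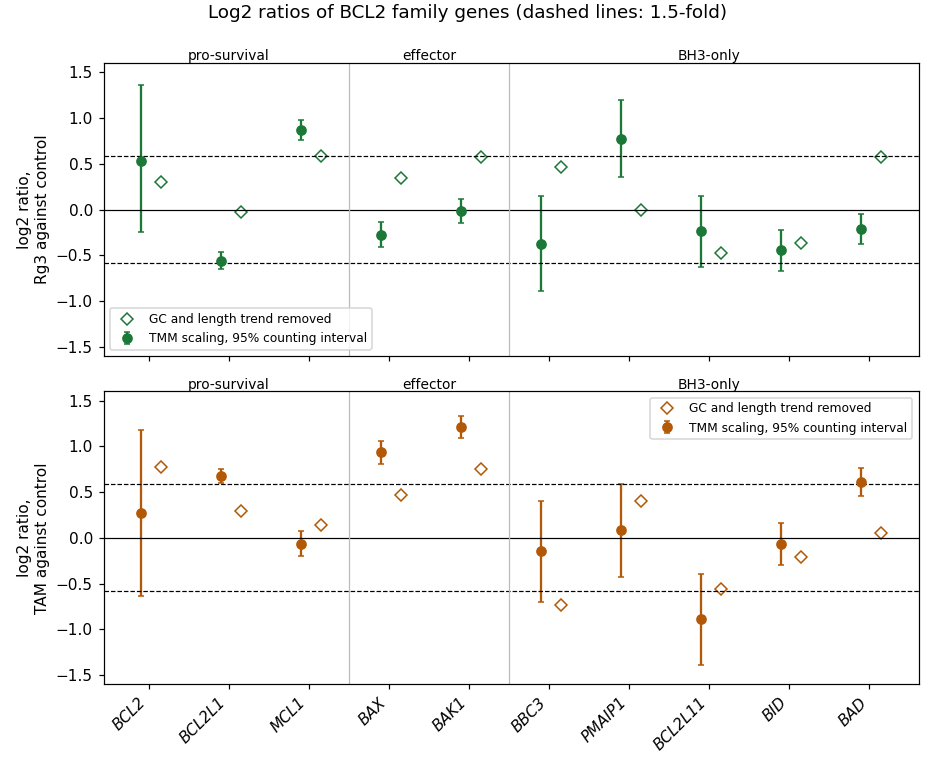
Log2 ratio of each gene for Rg3 against control (upper panel) and TAM against control (lower panel), grouped by class. Filled points are TMM-scaled ratios with 95% counting intervals, open diamonds have the GC and length trend removed, and dashed lines mark 1.5-fold. BAK1 with TAM is past the upper line on both scales. MCL1 with Rg3 is too, but with the trend removed only just (0.586), while BAK1 (0.578) and BAD (0.575) lie just inside.

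For TAM against control, more of the family was called. With TAM, 4 members were higher past 1.5-fold, beside 17.4% of the 16079 genes compared, and 1 was lower, beside 23.5%. The genes higher were both effectors, BAK1 and BAX, together with BCL2L1 and BAD, and the lower gene was BCL2L11. The members' median log2 ratio was 0.18 beside -0.02 for all genes. With the trend removed, 2 members were higher (13.1% of all genes) and 1 was lower (16.2%), and the medians were 0.22 and 0.00. These were in part other genes, BAK1 and BCL2 higher and BBC3 lower. The counting intervals of BCL2 and BBC3 as measured included 0. Scaling by library totals placed 9.80% of all genes higher and 32.6% lower, and 2 members, BAX and BAK1, remained higher.

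BAK1 had the largest ratio of the 10 genes. It was 2.32-fold higher in the TAM library than in control, a log2 ratio of 1.21 [1.09, 1.33], and 0.75 with the trend removed. In the reference transcripts, 12.8% of its stretches of 50 bases recur in the pseudogene BAK1P1, so part of its count is uncertain. BAX was 1.91-fold higher, a log2 ratio of 0.94 [0.81, 1.06], and was within the fold at 0.47 with the trend removed. BCL2L1 was 1.60-fold higher, at 0.68 [0.59, 0.76], or 0.30 with the trend removed. MCL1 was near the control level, at -0.07 [-0.20, 0.07], or 0.14 with the trend removed. BCL2 had a ratio of 0.27 [-0.64, 1.18] that rested on 23 and 22 counts, and its value of 0.78 with the trend removed rests on the same few reads.

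The BH3-only genes showed no common direction with TAM. BAD was 1.53-fold higher, at 0.61 [0.45, 0.77], and its excess was 0.06 with the trend removed. BCL2L11 was at 0.540 times the control level, a log2 ratio of -0.89 [-1.39, -0.40], and at -0.56 with the trend removed, just within the fold. BBC3 had -0.14 [-0.70, 0.41] as measured and -0.74 with the trend removed, on 51 and 65 counts. BID stood at -0.06 [-0.30, 0.17], or -0.21 with the trend removed, and PMAIP1 at 0.08 [-0.42, 0.58], or 0.40. Exons on the opposite strand overlap BAK1 (GGNBP1), BAD (GPR137), BCL2L1 (ABALON), BCL2L11 (MIR4435-2HG) and BBC3 (MIR3190), and exons on the same strand overlap MCL1 (ADAMTSL4-AS1) and BBC3 (MIR3191). Whether counting used strand is not given in the sources used here, so reads of such partners cannot be told apart from the members.

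The treated libraries were also set against each other, which does not use the control library. The doses differ, 50 μM of tamoxifen and 200 μM of Rg3, so the values compare these libraries and not the agents at a matched dose. In TAM against Rg3, 4 members were higher, beside 30.0% of the 16493 genes compared, and 3 were lower, beside 35.1%. BCL2L1 (1.24), BAK1 (1.23), BAX (1.21) and BAD (0.83) were higher on the log2 scale, and MCL1 (-0.93), PMAIP1 (-0.69) and BCL2L11 (-0.65) were lower. After removal of the trend, 0 members were higher (16.1% of all genes) and 1, BBC3, was lower (23.3%) at -1.22, on 51 and 63 counts. BCL2L1 was then 0.31, BAK1 0.15, BAX 0.11, MCL1 -0.47 and BCL2L11 -0.10. The sign turned for BAD (-0.53), PMAIP1 (0.37), BBC3 and BCL2 (-0.27 as measured, 0.46 with the trend removed).

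The balance of the classes was read next from summed counts. Of the reads on the 10 genes, the effectors took 28.4% [27.3, 29.6] in control, 26.7% [25.7, 27.7] in Rg3 and 38.5% [37.5, 39.6] in TAM. The pro-survival genes took 52.1% [50.8, 53.4], 55.8% [54.7, 56.9] and 46.5% [45.4, 47.6], and the BH3-only genes took 19.5% [18.5, 20.5], 17.5% [16.6, 18.4] and 15.0% [14.2, 15.8]. The TAM library thus had the largest effector share of the 3 libraries, and the same held per kilobase, where the effectors made up 35.9%, 35.2% and 45.2%. These exact binomial intervals are over 6031, 7323 and 8180 reads. The log2 ratio of summed effector reads to summed pro-survival reads, which no scaling changes, differed from control by 0.60 [0.49, 0.71] in TAM and by -0.19 [-0.30, -0.07] in Rg3. The shares and sums were not computed with the trend removed, and it can move them. BAK1 (58.8%) and BAX (58.9%) lie far from MCL1 (45.1%) in GC content. Taken instead as a difference of class medians, effector minus pro-survival was 0.80 for TAM and -0.68 for Rg3. With the trend removed, this difference of medians was 0.31 for TAM and 0.16 for Rg3, so its sign for Rg3 turned. The pro-survival median for Rg3 is the value of BCL2 on both scales, which rests on 40 and 22 counts. For TAM that median is the value of BCL2 as measured, on 23 and 22 counts, and of BCL2L1 with the trend removed. BH3-only reads against pro-survival reads differed from control by -0.22 [-0.35, -0.08] in TAM and by -0.25 [-0.39, -0.12] in Rg3. As differences of class medians with the trend removed, the values were -0.50 for TAM and -0.30 for Rg3. The sums lean on few genes: in control, BAD gave 582 of the 1175 BH3-only reads, and BCL2L1 gave 2152 of the 3142 pro-survival reads.

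**Figure D4:**
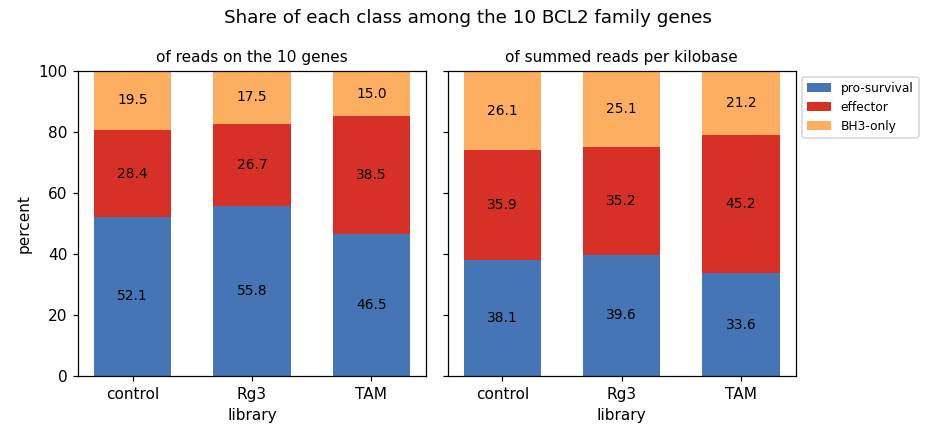
Share of each class in percent, for the reads on the 10 genes (left) and for the summed reads per kilobase (right), in the control, Rg3 and TAM libraries. The GC and length trend is not removed. Each bar is 1 library and adds up to the total of the 10 genes; the effector segment is 38.5% of reads in TAM against 28.4% in control and 26.7% in Rg3.

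Several of the proteins bind each other, and their transcripts were also read as ratios within a library. The 9 ratios computed were chosen with the values known and are descriptions, and not all of them are given. BAK1, BAX and BCL2L1 lie within a narrow range of GC content. There were 0.410 BAK1 reads per BCL2L1 read in control [0.379, 0.444], 0.597 in Rg3 [0.554, 0.644] and 0.595 in TAM [0.561, 0.631]. The log2 changes of this ratio were 0.54 and 0.54 for Rg3 and TAM, and 0.61 and 0.45 with the trend removed. BAX per BCL2L1 was 0.386 in control [0.356, 0.419], 0.471 in Rg3 [0.434, 0.511] and 0.463 in TAM [0.434, 0.494]. Its log2 changes were 0.29 for Rg3 and 0.26 for TAM, and 0.37 and 0.17 with the trend removed. BAD per BCL2L1 differed between the treated libraries, with log2 changes of 0.34 for Rg3 and -0.07 for TAM, or 0.60 and -0.24 with the trend removed. Both comparisons share the control library.

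BCL2L11 and MCL1, whose proteins bind with high affinity, also have nearly the same GC content. BCL2L11 per MCL1 was 0.115 in control [0.0934, 0.140], 0.0533 in Rg3 [0.0439, 0.0641] and 0.0649 in TAM [0.0481, 0.0860]. The Rg3 library had more MCL1 reads than control, and the TAM library had fewer BCL2L11 reads. The log2 changes were -1.11 for Rg3 and -0.82 for TAM, and -1.06 and -0.70 with the trend removed. PMAIP1 per MCL1 was 0.0744 in control, 0.0695 in Rg3 and 0.0824 in TAM, with overlapping intervals. Its log2 changes were -0.10 for Rg3 and 0.15 for TAM, and -0.59 and 0.26 with the trend removed. BAK1 per MCL1 was 0.912, 0.494 and 2.21. These genes lie far apart in GC content, and the log2 changes of -0.89 for Rg3 and 1.28 for TAM were -0.01 and 0.61 with the trend removed. The same holds for BCL2L1 per MCL1, with log2 changes of -1.43 for Rg3 and 0.74 for TAM, or -0.61 and 0.16 with the trend removed.

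The other genes of the pathway were followed in 7 lists, chosen with results of these data known, and the medians of all genes are 0.04 for Rg3 and -0.02 for TAM. The counts below stand beside 25.0% of all genes higher and 19.3% lower for Rg3, and 17.4% higher and 23.5% lower for TAM. With the trend removed these shares are 10.3% and 8.71% for Rg3, and 13.1% and 16.2% for TAM. Many of the counts are near them. Of 8 other BCL2 family genes compared, Rg3 had 1 higher and 2 lower (median 0.02), and TAM had 1 higher and 0 lower (median 0.19). BCL2A1, a further pro-survival gene, had 41 counts in control, 107 in Rg3 and 36 in TAM, a log2 ratio of 1.06 [0.53, 1.61] for Rg3 that was 0.42 with the trend removed. BMF, a BH3-only gene with 51, 39 and 48 counts, was lower with Rg3 at -0.71 [-1.35, -0.08], or -0.29 with the trend removed. BOK, an effector-like relative with 758, 687 and 1014 counts, was higher with TAM at 0.63 [0.49, 0.76], or 0.14 with the trend removed.

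Downstream of the mitochondria, Rg3 had 3 of 13 apoptosome and caspase genes higher and 0 lower, with a median of 0.07, and TAM had 2 higher and 1 lower, with a median of 0.08. APAF1, the scaffold that binds cytochrome c, had 87 counts in control, 246 in Rg3 and 46 in TAM, a ratio of 1.17 [0.81, 1.54] for Rg3 (0.64 with the trend removed) and -0.71 [-1.26, -0.18] for TAM (-0.03). HTRA2 and ENDOG, proteins of the space between the mitochondrial membranes, were higher with TAM at 0.72 and 0.69, and at 0.25 and 0.13 with the trend removed. Of 7 inhibitor of apoptosis genes, whose products restrain caspases or signalling to them, Rg3 had 4 higher and 1 lower (median 0.71), while TAM had 1 higher and 5 lower (median -0.81). With the trend removed, Rg3 had 0 called (median -0.03), and TAM had 0 higher and 3 lower (median -0.11). BIRC3, which encodes cIAP2, had 213, 508 and 63 counts, and its ratios of 0.93 for Rg3 and -1.55 for TAM became 0.05 and -0.83. BIRC6, the largest protein of that family, had 770, 1679 and 198 counts and stayed lower with TAM at -1.75 [-1.99, -1.53], or -0.91 with the trend removed.

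In the death receptor list of 9 genes, Rg3 had 2 higher and 0 lower (median 0.20), and TAM had 1 in each direction (median 0.14). TNFRSF10A, a receptor for TRAIL, had 81 counts in control, 156 in Rg3 and 174 in TAM. It was past the fold in both treated libraries, at 0.62 [0.22, 1.02] for Rg3 and 1.31 [0.92, 1.71] for TAM, and stayed so with the trend removed at 0.73 and 1.19.

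Of 11 genes that regulate transcription of BH3-only members, Rg3 had 3 in each direction (median 0.13), and TAM had 4 higher and 1 lower (median 0.38). With the trend removed, Rg3 had 5 higher and 1 lower (median 0.55), and TAM had 2 higher and 1 lower (median 0.10). DDIT3, a stress-induced factor of the ATF4 pathway that acts on BCL2L11 and BBC3, had 228, 680 and 382 counts. It was higher with Rg3 at 1.25 [1.03, 1.47] and with TAM at 0.95 [0.71, 1.19], or 1.33 and 0.77 with the trend removed. TRIB3, a target of ATF4 and DDIT3 with 437, 852 and 742 counts, was higher with Rg3 at 0.64 [0.47, 0.81] and with TAM at 0.97 [0.80, 1.14], or 1.31 and 0.52 with the trend removed. FOXO3, an activator of BCL2L11 and BBC3, had 320, 581 and 126 counts and was lower with TAM at -1.14 [-1.45, -0.84], or -0.78 with the trend removed. JUN, a subunit of AP-1, had 824, 754 and 1620 counts and was higher with TAM at 1.18 [1.06, 1.30], or 0.91 with the trend removed.

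Of 7 genes listed for turnover of the MCL1 protein, directly or through its regulators, Rg3 had 3 higher and 0 lower (median 0.58). TAM had 0 higher and 3 lower (median -0.54). After trend removal, Rg3 had 2 higher and 0 lower (median 0.29), and TAM had 1 higher and 2 lower (median -0.03). GSK3B, a kinase that marks MCL1 for degradation, had 99, 269 and 83 counts and a ratio of 1.12 [0.78, 1.46] for Rg3, or 0.61 with the trend removed. HUWE1, a ubiquitin ligase of MCL1, had 5540, 6511 and 1902 counts and a ratio of -1.34 [-1.41, -1.26] for TAM, or -0.83 with the trend removed. USP9X, an enzyme that removes ubiquitin from MCL1, had 399, 932 and 150 counts and was lower with TAM at -1.21 [-1.49, -0.93], or -0.29 with the trend removed. In the list of docking proteins and kinases, which has 13 genes, Rg3 had 1 in each direction (median 0.13), and TAM had 2 higher and 0 lower (median 0.19). AKT1, a kinase of BAD with 5395, 4114 and 6024 counts, was lower with Rg3 at -0.72 [-0.78, -0.66], or -0.02 with the trend removed. VDAC3, a channel of the outer membrane with 476, 1027 and 653 counts, was higher with Rg3 at 0.78 and with TAM at 0.66, and with the trend removed at 0.38 and 0.76. TPT1, which binds BCL2L1 and MCL1 and had 7043, 11996 and 9670 counts, was higher with TAM at 0.66 [0.62, 0.71], or 1.03 with the trend removed.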

How the data were processed

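RNA of PANC-1 cells was sequenced on an Ion Proton instrument, with 1 library for control, Rg3 and TAM. Alignment was by TopHat, and the table deposited by the authors holds raw counts of reads for each gene symbol. The submitters' processing notes name GRCh38; the annotation, the counting tool and the use of strand are not given in the sources used here. Libraries, doses and times were assigned from the labels. The members and gene lists were chosen with earlier results of these data known.

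From the deposited counts, ratios were computed in Python 3.11.15 and scipy 1.17.1, with TMM factors (control 1.02, Rg3 1.12, TAM 0.879) from edgeR 4.0.16 in R 4.3.3. A gene entered a comparison with 10 counts or more in either library. The 95% intervals were exact (Clopper-Pearson; Poisson for levels), or normal approximations for differences between class ratios. Past the fold means over 1.5 or under 0.67, the fold cut of the study; its Limma test needs replicates. The trend was removed by loess (span 0.3) on GC content, then log length, of the longest GENCODE 29 transcript, found for 86.6% of genes compared for Rg3, 87.2% for TAM and each member. Coordinates of promoters are RefSeq GRCh38.p14. The steps were tested on simulated data with counting error, an added straight-line GC trend and no variation between cultures. Such data do not show how the steps perform on these unreplicated libraries. Alternatives were library totals, size factors from DESeq2 1.42.0, other count minimums and folds, binomial and edgeR exact tests and trend removal. Named besides the members are at most 4 genes of a list and treatment, the 2 largest rises and 2 largest falls past the fold, given 50 counts or more; some of these are given only within the counts, and the results of some genes and of 1 list are not reported here.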

Additional observations from a re-analysis of the deposited data

How the results depend on the processing

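No paired analysis was possible because there was 1 library for each condition, and for the same reason no library could be left out. Size factors from DESeq2 kept all 20 member ratios against control within their counting intervals. Library totals moved 9 of them beyond that and left 11, and trend removal moved 13 and left 7. Trend removal turned the sign of 6, namely BAX, BAK1, BBC3, BAD and PMAIP1 with Rg3 and MCL1 with TAM, and of these PMAIP1 (-0.00097) had been past the fold. Library totals turned 2, BAK1 with Rg3 and PMAIP1 with TAM. Members higher with Rg3 numbered 1 with the trend removed and 0 at a fold of 2 (8.92% of all genes). Members higher with TAM numbered 2 with library totals, 2 with the trend removed and 1 at a fold of 2 (5.36% of all genes), and members lower numbered 0 at a fold of 2 (11.3%). For TAM against Rg3, 0 were higher and 1 lower with the trend removed, and 0 were lower at a fold of 2 (24.2%). edgeR's exact test with an assumed variation of 0.2 called 0 members against control in either direction (0.388% of all genes higher and 0.558% lower for Rg3, 0.678% and 2.27% for TAM) and 3 higher and 0 lower for TAM against Rg3 (13.1% and 17.8%), and with 0.4 it called 0 members in each comparison.

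The summed class ratios for Rg3, which were 0.05 (pro-survival), -0.14 (effector) and -0.20 (BH3-only), became 0.19, 0.0039 and -0.062 with library totals. Those for TAM, 0.48, 1.09 and 0.27, became 0.27, 0.88 and 0.057. Taken as medians of the members, pro-survival was 0.54 for Rg3 and 0.27 for TAM, BH3-only was -0.064 for TAM, effector minus pro-survival was -0.68 for Rg3 and 0.80 for TAM, and BH3-only minus pro-survival was -0.77 for Rg3. With the trend also removed, the medians for Rg3 were 0.30, 0.46 and -0.00097, with effector minus pro-survival at 0.16. For TAM they were 0.30, 0.61 and -0.21, with 0.31 for effector minus pro-survival and -0.50 for BH3-only minus pro-survival. These class medians rest on 3, 2 and 5 genes. For BCL2, BBC3, PMAIP1 and BCL2L11, the counts limit what a ratio can show.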
